A study of Saccharomyces cerevisiae with 4 samples.

Results

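The genes described here are those for the 31 subunits of the 3 nuclear RNA polymerases of budding yeast, taken by systematic name from a fixed list, out of 7071 genes in each table. The list holds 7 subunits found only in RNA pol I, 7 found only in RNA pol II, 10 found only in RNA pol III, 2 shared by RNA pol I and III, and 5 shared by RNA pol I, II and III. All 31 had enough counts to be tested, among 5527 genes tested. The study asked how transcription shapes chromosome structure, and it used thiolutin, an inhibitor of yeast RNA polymerases. Total RNA was sequenced from wild-type Saccharomyces cerevisiae of W303 origin (strain label CB67), arrested in G2/M with benomyl at 80 μg/ml for 90 min. The arrested cells then received the solvent DMSO (2 libraries, a and b) or thiolutin at 20 μg/ml for 30 min (2 libraries, a and b), so that the controls carry benomyl too. A pellet of fission yeast (S. pombe) cells was combined with that of each culture before RNA was extracted. The labels do not say whether a and b are separate cultures, so the p-values below measure the spread between these libraries, which may be technical. In a population of cells, fewer cells with an RNA and less of that RNA per cell cannot be told apart.

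RNA pol I transcribes the large ribosomal RNA precursor, and RNA pol II transcribes mRNAs (those of all the subunits included). RNA pol III transcribes tRNAs and a small ribosomal RNA that is not part of that precursor. Each enzyme is built from a pair of very large subunits that form the catalytic cleft, an alpha-like pair that nucleates assembly, a set of small subunits common to all the enzymes, a stalk that meets the emerging RNA, and a zinc ribbon subunit that takes part in RNA cleavage or in proofreading. RNA pol I and III carry further subunits built in, which resemble general initiation factors of RNA pol II.

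The promoters are shown first because every subunit mRNA that rose relative to other mRNAs came from a gene with both of the elements described here. Of the 12 subunit genes with both elements, 6 rose, 1 fell and 5 were not called. Over all genes tested, 29.3% of those with both elements rose and 19.0% fell. The elements were chosen with earlier results of these data known. A pair of short elements recurs before yeast genes for ribosome biogenesis: PAC, named after the genes for polymerases A and C (now I and III), which the repressors Dot6 and Tod6 bind, and RRPE, the rRNA processing element, which Stb3 binds. The letters GATGAG (PAC) and AAAATTTT (RRPE) were searched on both strands of the 300 bases before each start codon. AAAATTTT reads the same on both strands, and no base can belong to both motifs at once. Of 6001 promoters of that length, 19.1% held the PAC letters, 9.42% held the RRPE letters and 4.45% held both. Among the subunit genes, 16 of 31 (51.6%) held PAC, 16 of 31 (51.6%) held RRPE and 12 of 31 (38.7%) held both. PAC was present before 6 of 7 genes of RNA pol I, 8 of 10 of RNA pol III and both genes shared by these enzymes, and before 0 of 7 genes of RNA pol II and 0 of the 5 genes common to all the enzymes. With a window of 200 or 500 bases, chosen after seeing the data, 11 and 13 subunit genes held both motifs, against 3.38% and 5.98% of all promoters. A match of letters is a description of the sequence and no evidence of binding. The stretches that hold both motifs are given below for the 6 genes whose mRNA rose relative to other mRNAs. Also given are those of RPA34, whose mRNA fell, and of RET1 and RPC25, which were not called. Not printed are those of RPA14, RPC53 and RPC82, which also held both motifs and were not called. With flanks these span 88, 71 and 121 bases, against 33 to 56 bases for the printed stretches. The printed stretches are from the S288C reference (R64, same as sacCer3), 5′ to 3′ on the gene's strand. The PAC letters (GATGAG, or CTCATC on the other strand) and the RRPE letters are in capitals.
RPA190 (chrXV:960786-960828, plus strand): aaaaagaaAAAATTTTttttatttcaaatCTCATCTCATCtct
RPA135 (chrXVI:581292-581339, minus strand): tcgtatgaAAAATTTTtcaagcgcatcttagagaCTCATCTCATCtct
RPA43 (chrXV:960323-960372, minus strand): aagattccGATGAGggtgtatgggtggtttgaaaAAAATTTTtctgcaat
RPA49 (chrXIV:182725-182761, minus strand): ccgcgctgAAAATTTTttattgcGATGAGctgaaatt
RPC34 (chrXIV:635345-635400, minus strand): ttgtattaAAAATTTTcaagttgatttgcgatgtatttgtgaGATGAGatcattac
RPC40 (chrXVI:746905-746950, minus strand): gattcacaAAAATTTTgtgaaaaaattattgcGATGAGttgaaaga
RPA34 (chrX:140308-140340, plus strand): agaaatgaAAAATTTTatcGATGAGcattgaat
RET1 (chrXV:733562-733594, minus strand): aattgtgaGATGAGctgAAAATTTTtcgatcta
RPC25 (chrXI:176650-176683, minus strand): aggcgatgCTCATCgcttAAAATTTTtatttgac
In RPA190 and RPA135, which encode the catalytic subunits of RNA pol I, the PAC letters occur in a pair that overlaps by 1 base, with an RRPE upstream. In RET1 and RPC25 the order is PAC first and RRPE nearer to the gene, as in RPA43. RPA43 and RPA190 are neighbours transcribed away from each other, with 804 bases between their start codons (chrXV:960183-960986).

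The libraries held 27262771, 48045781, 38613462 and 11598766 expected counts (DMSO a, DMSO b, thiolutin a and thiolutin b), of which 80.8% to 86.6% lay on rRNA genes. Protein-coding genes took 11.8% and 11.2% of the counts with DMSO and 6.58% and 8.14% with thiolutin, so the median subunit gene had 318, 520, 188 and 56 counts. Thiolutin b was thus the least precise library. In the DMSO libraries, the mitotic genes CLB2, CLB1 and CDC5 stood between percentiles 63.1 and 78.2 of protein-coding genes, CDC20 at 53.7 and 55.5 and SWI5 at 35.9 and 42.7. Of the G1/S genes, CLN1, CLN2 and CLB6 stood between percentiles 10.6 and 19.9, while CLB5 (54.5 and 49.8) and RNR1 (42.4 in both) were not low. Some of these markers moved with the treatment, in both directions. With thiolutin CLB2 stood lower, at percentiles 42.5 and 39.7, as did CLB1 (61.2 and 55.4) and CDC5 (53.6 and 47.6). SWI5 stood higher (47.0 and 57.5), and CDC20 (53.6 and 56.9) overlapped its values with DMSO. Of the G1/S genes, RNR1 and CLN2 stood higher in both thiolutin libraries than in either DMSO library, and CLB5 stood lower. CLN1 and CLB6 overlapped between the treatments. The part of these markers in the results below was not tested.

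Levels are given as CPM (counts scaled to a common library size by TMM), a scaling that assumes that most mRNAs do not change and so sets the median change of all genes near 0 (log2 −0.020). Changes on this scale are therefore relative to other mRNAs. Scaled to the S. pombe reads, the median of all genes was −1.01, and scaled to library totals it was −0.99. All 31 subunit mRNAs had a log2 fold change below 0 on both of these scales, with a median of −1.19 on each. Every direction given below is on the TMM scale unless the other scale is named.

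In the plot of levels by library, the largest separations between the treatments were downward and belonged to short genes such as RPB9 and RPC17, whereas the large catalytic subunits of RNA pol I lay higher with thiolutin relative to other mRNAs.

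**Figure D1:**
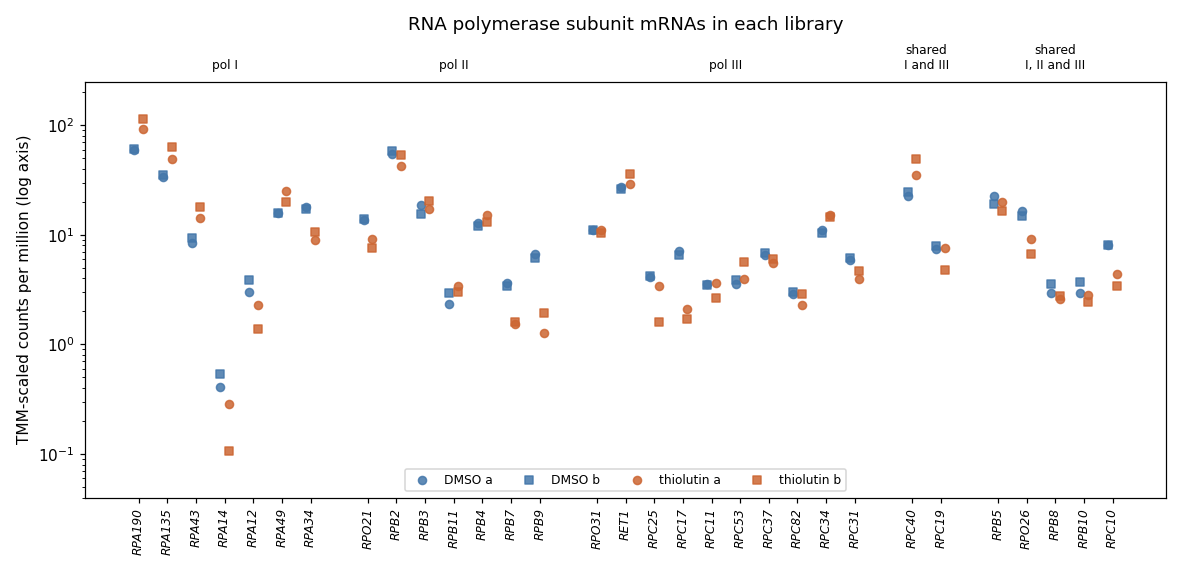
Level of each subunit mRNA in the 4 libraries, in CPM scaled by TMM on a log axis, with 1 point per library (blue, DMSO; orange, thiolutin; circles, a; squares, b) and genes grouped by enzyme. For 10 genes both thiolutin points lay above both DMSO points and for 17 both lay below; RPA14 is the lowest gene in every library.

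With thiolutin, 6 of the 31 subunit mRNAs rose relative to other mRNAs (19.4%, against 18.5% of all genes tested) and 8 fell (25.8%, against 17.6%), while 17 were not called, with edgeR's quasi-likelihood test at a Benjamini-Hochberg adjusted p under 0.05. Scaled to S. pombe reads, 0 rose (1.47% of all genes did) and 20 fell (64.5%, against 50.7%), and scaled to library totals, 0 rose (2.08%) and 24 fell (77.4%, against 65.9%). The share of subunit mRNAs that rose was thus close to that of all genes. The likelihood ratio test of edgeR called 6 higher and 9 lower at 0.05 (20.3% and 20.4% of all genes), and the Wald test of DESeq2 called 5 and 7 (15.4% and 10.4%). At the study's threshold of 1e-05 the quasi-likelihood test called 0 subunit mRNAs in either direction (0.796% and 0.199% of all genes), the likelihood ratio test called 0 higher and 5 lower (5.72% and 5.81%) and the Wald test called 0 higher and 2 lower (5.09% and 1.82%). Without adjustment, 6 were higher and 10 lower at p under 0.05 (23.1% and 22.8% of all genes). The thiolutin libraries lay above both DMSO libraries for 10 subunit mRNAs (32.3%, against 33.2%) and below both for 17 (54.8%, against 36.7%). The enzymes differed in their counts. Of the subunits found only in RNA pol I, 4 of 7 rose and 2 fell (median log2 change 0.52 on the TMM scale and −0.48 on the S. pombe scale). Of those found only in RNA pol II, 0 of 7 rose and 3 fell (median −0.25). Of those found only in RNA pol III, 1 of 10 rose and 1 fell (median −0.18). All 24 subunits specific to 1 enzyme gave 5 higher and 6 lower (median −0.18), and the 7 shared subunits gave 1 higher and 2 lower (median −0.29). Whether the classes differ was not tested over the genes, since subunits of an enzyme are not replicates.

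**Figure D2:**
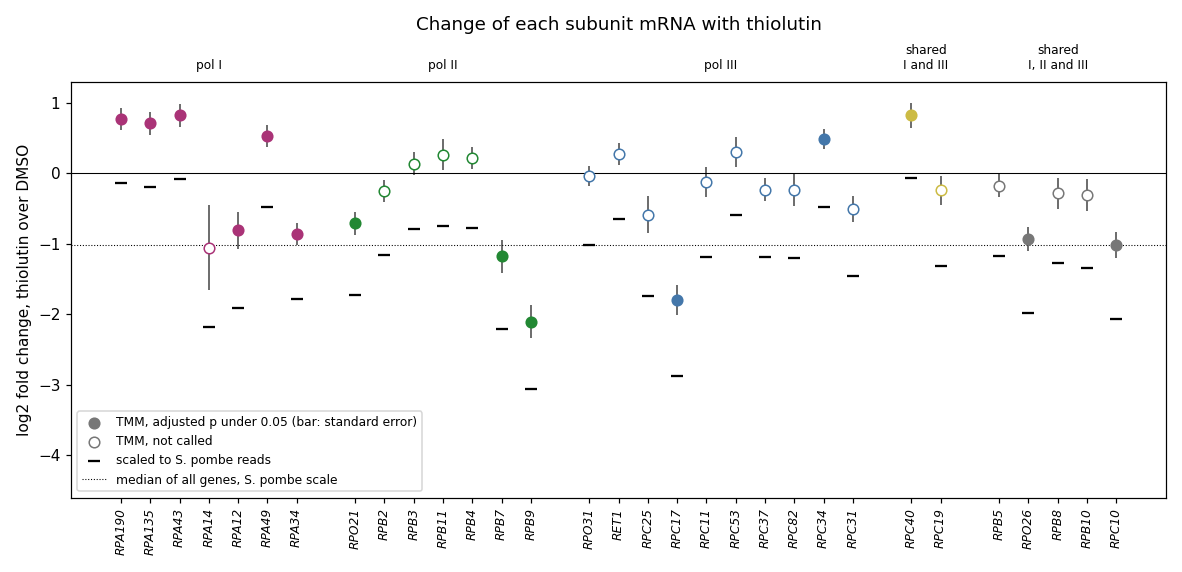
Log2 fold change of each subunit mRNA, thiolutin over DMSO (vertical axis), on the TMM scale (circles; filled where the adjusted p was under 0.05; bars, standard error, 2 libraries per group) and scaled to S. pombe reads (dashes), with genes along the horizontal axis by enzyme. On the TMM scale 11 of 31 genes lie above 0, whereas on the S. pombe scale all 31 lie below 0 and the dotted line marks the median of all genes at −1.01.

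Leaving out a DMSO library changed the calls of rises most. Without DMSO a, 0 subunit mRNAs rose (6.5% of all genes did) and 7 fell (7.81%), and without DMSO b, 2 rose (8.75%) and 6 fell (9.29%). Without thiolutin a the counts were 7 and 10 (20.8% and 19.2%), and without thiolutin b 6 and 10 (22.0% and 21.3%).

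The catalytic subunits of RNA pol I rose relative to other mRNAs. RPA190 (YOR341W, chrXV:960987-965981), the largest subunit, had 59.5 and 61.1 CPM with DMSO and 92.3 and 114 CPM with thiolutin. Its log2 fold change was 0.77 (SE 0.16, adjusted p = 0.0036, edgeR quasi-likelihood test), and −0.14 on the S. pombe scale. RPA135 (YPR010C, chrXVI:577585-581196), the second largest subunit, had 33.6 and 34.8 CPM with DMSO and 49.2 and 63.2 CPM with thiolutin. The groups did not overlap for either gene, and RPA135 was higher by 0.71 on the log2 scale (SE 0.16, adjusted p = 0.0060), and at −0.19 on the S. pombe scale. The call was lost without DMSO a (adjusted p = 0.082 for RPA190 and 0.096 for RPA135) and without DMSO b (0.054 and 0.059), although the fold changes stayed between 0.51 and 0.92.

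The counterparts of these subunits in RNA pol II and III were not called higher. RPO21 (YDL140C, chrIV:205360-210561), the largest subunit of RNA pol II, which carries its C-terminal repeat domain and whose protein the study followed on chromatin, had 13.8 and 14.0 CPM with DMSO and 9.12 and 7.55 CPM with thiolutin. It fell by 0.71 on the log2 scale (SE 0.16, adjusted p = 0.0050), a call lost without DMSO a (adjusted p = 0.063) or DMSO b (0.067). RPB2 (YOR151C, chrXV:612997-616671), its partner in the cleft, had 55.2 and 58.4 CPM with DMSO and 42.8 and 53.2 CPM with thiolutin. Both thiolutin values of RPB2 lay below both DMSO values, but the change of −0.25 (SE 0.16) was not called (adjusted p = 0.24). It was called without thiolutin b (adjusted p = 0.0083), and lower on the S. pombe scale (−1.16, adjusted p = 0.016) and with library totals (−1.18). RPO31 (YOR116C, chrXV:539763-544145), the largest subunit of RNA pol III, had 11.0 CPM in both DMSO libraries and 11.0 and 10.4 CPM with thiolutin. This difference of −0.038 (SE 0.15, adjusted p = 0.86) was the smallest in size among the 31 genes. RET1 (YOR207C, chrXV:730008-733457), the second largest subunit of RNA pol III, had 27.1 and 26.3 CPM with DMSO and 29.0 and 35.7 CPM with thiolutin, a difference of 0.27 (SE 0.15, adjusted p = 0.20), which was called without thiolutin a (adjusted p = 0.018) and, in the other direction, with library totals (−0.66, adjusted p = 0.025).

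The stalk subunits changed unevenly within each enzyme. RPA43 (YOR340C, chrXV:959202-960182), the RNA pol I stalk subunit through which the initiation factor Rrn3 docks, had 8.33 and 9.43 CPM with DMSO and 14.2 and 17.8 CPM with thiolutin. It rose by 0.82 (log2, SE 0.16, adjusted p = 0.0029; −0.077 on the S. pombe scale), and the call was lost without DMSO a (adjusted p = 0.057). Its partner RPA14 (YDR156W, chrIV:769525-769938) was barely detected, with 16 and 35 counts with DMSO and 7 and 1 with thiolutin. The single count in thiolutin b has an exact 95% Poisson interval of 0.025 to 5.57 counts, which covers counting error only, and the change of −1.06 (SE 0.60) was not called (adjusted p = 0.20). RPA14 overlaps the reading frame YDR157W by 8 bases on the same strand, the only overlap found among the 31 genes. In RNA pol II, RPB7 (YDR404C, chrIV:1276654-1277169), the stalk subunit that touches RNA, had 3.64 and 3.44 CPM with DMSO and 1.55 and 1.59 CPM with thiolutin, and fell by 1.17 on the log2 scale (SE 0.23, adjusted p = 0.0030). Its partner RPB4 had 12.8 and 12.0 CPM with DMSO and 15.3 and 13.2 CPM with thiolutin, a difference of 0.22 that was not called (adjusted p = 0.28). In RNA pol III it was the counterpart of RPB4, and not that of RPB7, that was called. RPC17 (YJL011C, chrX:414285-414770), had 7.18 and 6.59 CPM with DMSO and 2.12 and 1.70 CPM with thiolutin, and fell by 1.80 on the log2 scale (SE 0.21, adjusted p = 0.00011). RPC25, the counterpart of RPB7 and RPA43, had 4.10 and 4.19 CPM with DMSO and 3.42 and 1.59 CPM with thiolutin. Thiolutin b was the lower of the thiolutin libraries of RPC25 by a wide margin, and its change of −0.59 (SE 0.27, adjusted p = 0.11) became −1.38 (adjusted p = 3.85e-04) without thiolutin a and −0.30 (adjusted p = 0.27) without thiolutin b.

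Among the zinc ribbon subunits, the RNA pol II member had the largest fall of all 31 genes. RPB9 (YGL070C, chrVII:374459-374827), which acts in start site choice and transcript cleavage, had 6.67 and 6.08 CPM with DMSO and 1.26 and 1.91 CPM with thiolutin. It fell by 2.10 on the log2 scale (SE 0.24, adjusted p = 9.6e-05), and its change on the S. pombe scale was −3.06. RPA12 (YJR063W, chrX:555195-555572), its counterpart in RNA pol I, had 3.00 and 3.86 CPM with DMSO and 2.28 and 1.38 CPM with thiolutin. It fell by 0.81 (SE 0.27, adjusted p = 0.035), a call lost without DMSO b (adjusted p = 0.23) and with the DESeq2 Wald test (0.14), and a change that reached −1.32 without thiolutin a. RPC11, the RNA pol III member, had 3.59 and 3.52 CPM with DMSO and 3.62 and 2.66 CPM with thiolutin, so that its groups overlapped (−0.12, adjusted p = 0.69).

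**Figure D3:**
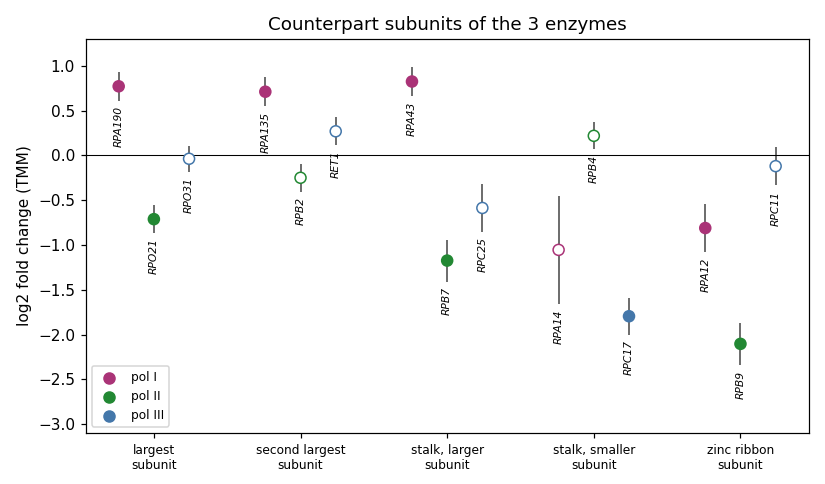
Log2 fold change (thiolutin over DMSO, TMM scale, vertical axis) of subunits that hold the same place in RNA pol I, II and III (horizontal axis), with standard errors as bars (2 libraries per group) and filled points where the adjusted p was under 0.05. In RNA pol I the largest and the second largest subunit and the stalk subunit RPA43 rose on this scale (0.71 to 0.82). They lay at −0.19 to −0.077 on the S. pombe scale. Their RNA pol II counterparts lay at −0.71, −0.25 and −1.17 on the TMM scale. Stalk subunits are placed by counterpart, with RPA43, RPB7 and RPC25 under the larger subunit. In RNA pol II the RPB4 gene (666 bases) is nevertheless longer than RPB7 (516 bases).

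RNA pol I and III each carry a further heterodimer, and RNA pol III also a heterotrimer, of which 2 mRNAs rose on the TMM scale (RPA49 and RPC34) and 1 fell (RPA34). RPA49 (YNL248C, chrXIV:181361-182608), which together with RPA34 forms the RNA pol I subcomplex that resembles the initiation factor TFIIF, had 15.9 CPM in both DMSO libraries and 25.3 and 19.9 CPM with thiolutin. It rose by 0.52 on the log2 scale (SE 0.16, adjusted p = 0.023; −0.48 on the S. pombe scale), a call lost without DMSO a (adjusted p = 0.18), DMSO b (0.18) or thiolutin a (0.11, with a change of 0.32). RPA34 (YJL148W, chrX:140437-141138), the other part of that dimer, had 17.8 and 17.2 CPM with DMSO and 9.04 and 10.5 CPM with thiolutin. The groups were well separated and RPA34 fell by 0.86 (SE 0.15, adjusted p = 0.0016), a call that held without each library in turn. In RNA pol III the corresponding pair, RPC53 and RPC37, was not called, with differences of 0.30 (SE 0.22) and −0.23 (SE 0.17). RPC53 was called higher without thiolutin a (0.60, adjusted p = 0.040). Of the initiation heterotrimer, RPC34 (YNR003C, chrXIV:634344-635297), which contacts the initiation factor Brf1, had 11.1 and 10.4 CPM with DMSO and 15.3 and 14.7 CPM with thiolutin. RPC34 rose by 0.49 (SE 0.14, adjusted p = 0.023; −0.48 on the S. pombe scale), and the call was lost without DMSO a (adjusted p = 0.18), without DMSO b (0.26) and with the DESeq2 Wald test (0.066). Its partners RPC82 and RPC31 had differences of −0.24 (SE 0.23, adjusted p = 0.44) and −0.51 (SE 0.18, adjusted p = 0.051). RPC31 lay just outside the threshold, and was called lower without thiolutin b (adjusted p = 0.0055).

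The alpha-like subunits form the platform on which each enzyme assembles. RPC40 (YPR110C, chrXVI:745828-746835), which serves both RNA pol I and III, had 22.7 and 24.6 CPM with DMSO and 35.5 and 48.9 CPM with thiolutin. It was the only shared subunit that rose, by 0.82 on the log2 scale (SE 0.17, adjusted p = 0.0041; −0.064 on the S. pombe scale), and the call was lost without DMSO a (adjusted p = 0.057). RPC19 (YNL113W), its partner in both enzymes, had 7.41 and 7.94 CPM with DMSO and 7.65 and 4.78 CPM with thiolutin. The groups of RPC19 overlapped, and the difference of −0.24 (SE 0.20, adjusted p = 0.39) became −0.68 (adjusted p = 0.012) without thiolutin a and −0.026 (adjusted p = 0.92) without thiolutin b. The RNA pol II counterparts were not called. RPB3 had 18.7 and 15.4 CPM with DMSO and 17.3 and 20.5 CPM with thiolutin (0.14, adjusted p = 0.53). RPB11 had 2.36 and 2.96 CPM with DMSO and 3.38 and 2.98 CPM with thiolutin (0.27, adjusted p = 0.38).

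All 5 subunits common to RNA pol I, II and III lay below 0, and 2 of them fell. RPO26 (YPR187W, chrXVI:911257-911800, 2 coding exons), known as the ABC23 or Rpb6 subunit, had 16.5 and 14.9 CPM with DMSO and 9.24 and 6.70 CPM with thiolutin, and fell by 0.93 on the log2 scale (SE 0.17, adjusted p = 0.0021). RPC10 (YHR143W-A, chrVIII:387233-387445), a small zinc-binding subunit near the assembly platform, had 8.15 and 7.99 CPM with DMSO and 4.36 and 3.40 CPM with thiolutin, and fell by 1.01 (SE 0.18, adjusted p = 0.0018). Both calls held without each library in turn. RPB5, a subunit of the jaw that grips downstream DNA, had 22.6 and 19.1 CPM with DMSO and 20.0 and 16.6 CPM with thiolutin, which overlapped (−0.17, SE 0.16, adjusted p = 0.42). RPB8 had 2.92 and 3.53 CPM with DMSO and 2.61 and 2.76 CPM with thiolutin (−0.29, SE 0.22, adjusted p = 0.34). RPB10, another zinc-binding subunit of the assembly platform, had 2.92 and 3.73 CPM with DMSO and 2.85 and 2.45 CPM with thiolutin (−0.31, SE 0.23, adjusted p = 0.31).

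The mRNA ratios of subunits that sit side by side in the enzyme were compared within each library. The ratios below are of length-adjusted levels within a library, so they do not depend on the scaling between libraries, and these pairs were chosen after their values had been seen. The ratio of RPB4 to RPB7 was 2.64 and 2.61 with DMSO and 7.43 and 6.20 with thiolutin, a log2 difference of 1.37. RPA49 over RPA34 was 0.482 and 0.495 with DMSO and 1.51 and 1.02 with thiolutin, a log2 difference of 1.34. RPC40 over RPC19 was 1.18 and 1.20 with DMSO and 1.79 and 3.95 with thiolutin. In these pairs the DMSO libraries were nearly equal, and the thiolutin libraries lay above them but apart from each other. RPC17 over RPC25 moved the other way, from 2.39 and 2.14 with DMSO to 0.844 and 1.45 with thiolutin. RPA43 over RPA14 was 7.75 and 6.69 with DMSO and 19.0 and 63.7 with thiolutin, where the last value rests on 1 count of RPA14. RPB3 over RPB11 gave overlapping groups (2.66 and 1.74 with DMSO, 1.71 and 2.31 with thiolutin). RPC53 over RPC37 was 0.351 and 0.369 with DMSO and 0.460 and 0.616 with thiolutin. Groups that do not overlap are common in these data, since 33.2% of single genes were higher and 36.7% lower without overlap. With 2 libraries against 2, the exact two-sided permutation test cannot go below p = 0.33, which is the value for every pair but RPB3 over RPB11 (0.67).

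**Figure D4:**
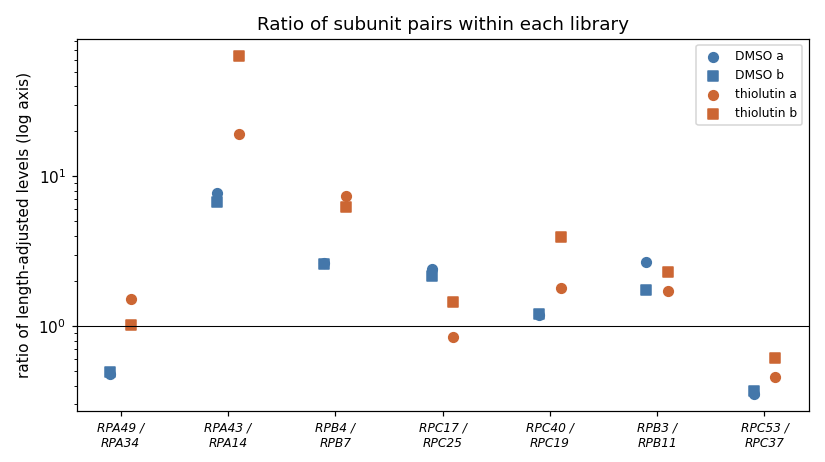
Ratio of length-adjusted levels of neighbouring subunits within each library (log axis), with 1 point per library (blue, DMSO; orange, thiolutin; circles, a; squares, b). Ratios with thiolutin lie above those with DMSO for 5 pairs, below them for RPC17 over RPC25, and among them for RPB3 over RPB11.

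Summed over the subunits of an enzyme, the mRNAs of RNA pol I stood higher relative to those of RNA pol II in both thiolutin libraries than in either DMSO library. The sum of RNA pol I itself overlapped between the treatments. As TPM over protein-coding genes it was 627 and 665 with DMSO and 553 and 679 with thiolutin. The sum of RNA pol II on that scale was lower with thiolutin (466 and 558) than with DMSO (743 and 717). The deposited TPM summed over the 7 genes of RNA pol I were 0.845 and 0.929 times those of the 7 genes of RNA pol II with DMSO, and 1.18 and 1.22 times with thiolutin (log2 difference 0.44, exact two-sided permutation p = 0.33, the smallest possible). It was 0.81 from summed expected counts. For RNA pol III over RNA pol II the ratios were 0.835 and 0.860 with DMSO and 0.904 and 0.825 with thiolutin, which overlapped (log2 difference 0.028, exact permutation p = 1). With summed expected counts or the mean of log2 TPM in place of summed TPM, this difference was 0.25 and 0.24 and the groups did not overlap (exact permutation p = 0.33 for each). For the 7 shared subunits over RNA pol II they were 2.10 and 2.20 with DMSO and 2.21 and 1.94 with thiolutin (−0.056, exact permutation p = 1). A sum of this kind is led by its most abundant mRNAs. As TPM over protein-coding genes, a length-adjusted level, the highest values with DMSO were those of RPC10 (mean 414), RPO26 (296), RPB5 (272) and RPA34 (209), and the lowest were those of RPO21 (20.6), RPO31 (19.4), RPC82 (11.8) and RPA14 (10.3). The largest subunits of RNA pol II and III thus had far lower mRNA levels than the small shared subunits of the same enzymes, while RPB2 (120) stood well above RPO21. With thiolutin RPC40 (292) was the highest and RPB5 (201) followed, with RPC10 at 168 and RPO26 at 126, all on the same length-adjusted scale.

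The changes were then set against the promoter motifs shown above. On the TMM scale, all 6 mRNAs that rose came from the 12 genes with both PAC and RRPE, of which 1 fell (RPA34) and 5 were not called (RPA14, RET1, RPC25, RPC53 and RPC82). Among the 4 genes with PAC alone none was called, among the 4 with RRPE alone 3 fell and among the 11 with neither 4 fell. The median log2 change was 0.39 for genes with both motifs and −0.31 for genes without PAC on the TMM scale, and −0.54 and −1.34 on the S. pombe scale. Over all genes tested, 77 of 263 with both motifs rose (29.3%) and 50 fell (19.0%), and without the subunit genes 71 of 251 rose (28.3%). Of 759 genes with PAC alone, 18.1% rose and 19.6% fell, of 272 with RRPE alone, 25.4% rose and 17.6% fell, and of 3976 with neither, 16.8% rose and 17.9% fell. Over all genes, the share that rose was thus nearly as high with RRPE alone as with both motifs, whereas no subunit gene with RRPE alone rose. The motifs are not spread evenly over the enzymes. The enzyme and the motif cannot be told apart for RNA pol II, none of whose own genes holds PAC. The same holds for the 5 subunits common to all the enzymes, none of which holds PAC. Of the 7 genes of RNA pol I, 6 hold both motifs and RPA12 holds neither, so the 2 can hardly be told apart there. The motifs vary within RNA pol III. There RET1, RPC25, RPC53, RPC82 and RPC34 hold both motifs, and of these only RPC34 rose. RPO31, RPC37 and RPC31 hold PAC alone, and RPC17 and RPC11 hold neither. The other rises were those of RPA190, RPA135, RPA43 and RPA49, found only in RNA pol I, and of RPC40, shared by RNA pol I and III.

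**Figure D5:**
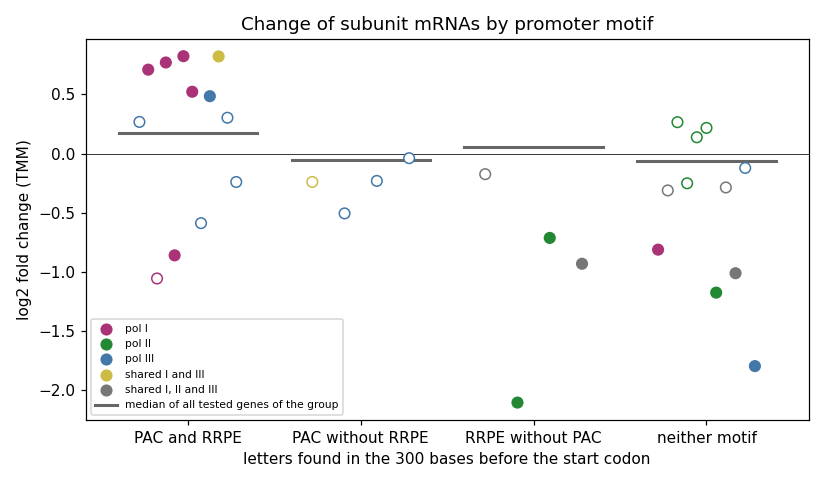
Log2 fold change of the subunit mRNAs (thiolutin over DMSO, TMM scale, vertical axis) grouped by the motif letters found in the 300 bases before the start codon (horizontal axis), coloured by enzyme, filled where the adjusted p was under 0.05, with the median of all tested genes of each motif group as a bar. The 6 filled points above 0 are all in the group with both motifs, and on the S. pombe scale all 31 genes lie below 0.

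The subunit genes were also divided by length. Of the 12 subunit genes under 600 bases, 0 rose and 6 fell (median log2 change −0.87), of the 12 between 600 and 1500 bases, 4 rose and 1 fell (0.18), and of the 7 longer ones, 2 rose and 1 fell (−0.038). Among all protein-coding genes tested, 116 of 743 under 600 bases rose and 124 fell, 499 of 2377 between 600 and 1500 bases rose and 411 fell, and 336 of 2150 longer ones rose and 425 fell. These genes share their libraries and are not independent replicates, and the part of length in the result was not tested.

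Factors that work with the polymerases were examined in 4 lists, which together gave 7 higher and 7 lower calls among 32 genes (21.9% in each direction, against 18.5% and 17.6% of all genes, with a median log2 change of −0.22). Of the 9 factors of RNA pol I, 0 rose and 5 fell (median −1.02, and −2.06 on the S. pombe scale). RRN10, of the upstream activating factor, had 1.51 and 1.44 CPM with DMSO and 0.163 and 0.638 CPM with thiolutin, and fell by 2.24 on the log2 scale (SE 0.52, adjusted p = 0.0063). Its values rest on few counts, 59 and 94 with DMSO and 4 and 6 with thiolutin, so the size of this fall is imprecise. RRN11, of the core factor, had 6.82 and 6.56 CPM with DMSO and 2.00 and 1.59 CPM with thiolutin, and fell by 1.84 (SE 0.21, adjusted p = 9.6e-05). RRN6, also of the core factor, had 10.5 CPM in both DMSO libraries and 3.26 and 3.19 CPM with thiolutin, and fell by 1.70 (SE 0.18, adjusted p = 5.5e-05). The others that fell were RRN3, which makes RNA pol I competent to initiate (−1.14), and UAF30 (−1.02). All 5 of these genes held the PAC letters, and 3 of them held both motifs, so the letters are also found before mRNAs that fell. The 4 factors of this list that were not called (RRN5, RRN7, RRN9 and HMO1) held neither motif. In the other lists both motifs were found before GPN3, which rose, and before BUD27 and RTP1, which were not called. The fall of RRN10 was not called without DMSO a (adjusted p = 0.058) or without thiolutin a (−1.20, adjusted p = 0.079), and that of UAF30 not without DMSO a (−0.68, adjusted p = 0.51), DMSO b (0.095) or thiolutin a (0.23).

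Of the 9 factors of RNA pol III, 2 rose and 1 fell on the TMM scale. TFC3, a subunit of TFIIIC, the factor that recognizes tRNA genes, had 5.31 and 4.70 CPM with DMSO and 8.75 and 8.72 CPM with thiolutin (0.81, SE 0.17, adjusted p = 0.0035; −0.17 on the S. pombe scale). BRF1, of TFIIIB, had 4.69 and 5.67 CPM with DMSO and 7.53 and 7.87 CPM with thiolutin (0.56, SE 0.18, adjusted p = 0.029; −0.39 on the S. pombe scale). TFC4, another subunit of TFIIIC, had 6.56 and 7.20 CPM with DMSO and 4.07 and 5.53 CPM with thiolutin, and fell by 0.58 (SE 0.19, adjusted p = 0.039). TFC3 was not called without DMSO b (adjusted p = 0.10), BRF1 without either DMSO library (0.37 and 0.12), and TFC4 without DMSO a (0.19), DMSO b (0.33) or thiolutin a (−0.32, adjusted p = 0.27).

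Of the 8 factors for assembly and nuclear import of the polymerases, 2 rose on the TMM scale and 0 fell. NPA3, a GTPase for nuclear import of RNA pol II, had 22.5 and 22.6 CPM with DMSO and 37.5 and 45.5 CPM with thiolutin (0.87, SE 0.15, adjusted p = 0.0015; −0.040 on the S. pombe scale). GPN3, a related GTPase, had 8.61 and 8.86 CPM with DMSO and 12.8 and 13.2 CPM with thiolutin (0.57, SE 0.15, adjusted p = 0.011; −0.38 on the S. pombe scale). Of the 6 elongation factors of RNA pol II, 3 rose on the TMM scale and 1 fell. DST1, which encodes the cleavage factor TFIIS, had 8.20 and 8.26 CPM with DMSO and 12.4 and 12.9 CPM with thiolutin (0.61, SE 0.15, adjusted p = 0.0078; −0.34 on the S. pombe scale). SUB1, a coactivator, and SPT6, a histone chaperone, were higher by 0.60 and 0.57 (−0.39 and −0.34 on the S. pombe scale). SPT4, which encodes the small zinc-binding partner of Spt5, had 7.49 and 8.17 CPM with DMSO and 2.24 and 2.23 CPM with thiolutin, and fell by 1.81 (SE 0.20, adjusted p = 7.4e-05), where SPT5 had a difference of −0.15 (adjusted p = 0.45). Without DMSO a or DMSO b, the rises of GPN3, DST1, SUB1 and SPT6 were not called (adjusted p from 0.059 to 0.28), whereas the rise of NPA3 and the fall of SPT4 were called without each library in turn.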

How the data were processed

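Total RNA from 4 libraries of S. cerevisiae was depleted of large rRNA and sequenced as stranded, single-end reads. According to the submitters' processing notes, STAR 2.7.3a, RSEM 1.3.1, Bowtie 1.2.2 and the build sacCer3 were used. The authors deposited 1 table per library with expected counts (estimated reads per gene, not normalized), TPM and FPKM values. The deposited TPM, adjusted by the authors for length and depth, have 2 decimals and served for the summed ratios only; the deposited FPKM values were not used. Expected counts were whole in 30 of the 31 subunit genes (tolerance 0.001; RPB5 was the exception) and were rounded, ties up. The tables hold no comparisons by the authors.

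Genes were kept with filterByExpr, scaled by TMM and tested with the quasi-likelihood test of edgeR 4.0.16 (R 4.3.3), thiolutin against DMSO, with Benjamini-Hochberg adjustment over 5527 genes. SE is the ratio of the log2 fold change to the root of F. The test was also run on simulated counts with equal numbers of rises and falls and the same spread for every gene. That setting differs from these data, where most mRNAs fell against the S. pombe reads, so nothing is concluded from it. Length-adjusted levels were recomputed from the expected counts as TPM over protein-coding genes. Alternatives used DESeq2 1.42.0, library totals, the S. pombe reads given in the study's read statistics, other filters, a replicate block and each library left out. Counts of protein-coding genes differed between replicates beyond counting noise (chi-square over its degrees of freedom, 4.56 with DMSO and 6.41 with thiolutin). Deviations of a and b did not go together between conditions (correlation 0.033), so the letters were not used as pairs. Python 3.11.15, pandas 2.3.3, SciPy 1.17.1 and matplotlib 3.10.9 were used. Coordinates and promoters are from R64 (S288C), whereas the strain is W303.

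The members, the gene lists and the motifs were chosen with earlier results of these data known. Described with values are the 2 largest subunits of each enzyme, the 7 shared subunits and every subunit with an adjusted p under 0.05, and, of each partner list, at most the 3 largest called changes in each direction; other subunits, and other called partners, are given in brief. The nascent RNA and the other assays of the study were not used.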

Additional observations from a re-analysis of the deposited data

How the results depend on the processing

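Every rise was relative to other mRNAs. With library totals, 11 subunit mRNAs changed direction: RPA190 (−0.16), RPA135 (−0.21), RPA43 (−0.10), RPA49 (−0.46), RPB3 (−0.80), RPB11 (−0.72), RPB4 (−0.76), RET1 (−0.66), RPC53 (−0.63), RPC34 (−0.48) and RPC40 (−0.094). With S. pombe reads the same 11 had −0.14, −0.19, −0.077, −0.48, −0.79, −0.75, −0.78, −0.64, −0.59, −0.48 and −0.064. These scales gave 0 and 0 higher and 24 and 20 lower subunits, 0 and 0 higher and 23 and 21 lower partners, 0 and 0 higher and 5 and 4 lower genes with both motifs, and a median of −1.19 on each; scaling to a total that includes rRNA or added cells, rather than to mRNAs, is what these settings change. The median was −0.28 with a mean count of at least 50, which drops RPA14, and −0.21 with the DESeq2 Wald test. No filter, or a window of 500 bases, gave 2 lower genes with both motifs. Over all genes, the Wald test gave 559 lower calls in place of 971.

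With a library left out, which assumes that the lone library varies like the other group, subunits called higher ranged from 0 to 7 and lower from 6 to 10, partners from 1 to 7 and from 4 to 8, genes with both motifs from 0 to 7 and from 1 to 2, and the median from −0.26 to −0.19. Over all genes these fits gave 368 to 1259 higher and 442 to 1219 lower calls. RPC11 ranged from −0.42 to 0.012, above 0 without thiolutin b. RPB3 over RPB11 (−0.11) ranged from −0.42 to 0.19, above 0 without DMSO a (0.19) or thiolutin a (0.10). The ratio of RNA pol III to RNA pol II ranged from −0.037 to 0.094 (0.25 from summed counts and 0.24 from mean log2 TPM), and that of shared subunits to RNA pol II from −0.15 to 0.039; the latter was 0.26 from summed counts and 0.18 from mean log2 TPM. That of RNA pol I to RNA pol II ranged from 0.37 to 0.51, and was 0.81 from summed counts. The cause of these shifts was not tested.

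A replicate block gave 6 higher and 8 lower subunits, a median of −0.22 and 1069 higher and 942 lower genes, and changed no call of a subunit. Of 124 values for single subunits with a library left out, 103 kept direction and call, 14 lost the call and 6 gained it. Of 185 values under settings other than these and the 2 scales above, 179 kept both, 2 lost the call (RPA12 and RPC34) and 4 gained it (RPC25 once, RPC31 in the others). Thiolutin b had the fewest counts (56 for the median subunit).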
